A study of Rattus norvegicus with 6 samples.

Results

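Ovaries make steroid hormones from cholesterol, and the 8 genes described here supply it or set how much is supplied. They are Hmgcs1, Idi1, Fdps, Sqle and Cyp51, which encode enzymes of cholesterol synthesis, Scarb1, which encodes a receptor for lipoprotein cholesterol, and Insig1 and Srebf2, which govern the pathway. Members were found by matching the RefSeq accession of each array probe to these symbols, and all 8 of the 15154 gene symbols named on the array in this way were found. They were measured by 10 probes among 30367 tested. Neonatal Wistar rats received either LPS (lipopolysaccharide of Salmonella Enteritidis, 0.05 mg/kg) or an equal volume of saline into the peritoneum on PNDs 3 and 5, and ovaries of female pups were taken on PND 7. RNA of the whole ovary was hybridised to 1-colour Agilent arrays, with 3 arrays for each treatment. The labels name no engineered allele. According to the methods, tissue came from 5 animals of 2 litters for each treatment. How these animals were spread over the 3 arrays was not given in the sources used here, so p-values measure the spread between arrays, which may share animals or litters.

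Cells make cholesterol from acetyl-CoA by way of mevalonate, isoprenoid pyrophosphates, squalene and lanosterol. When membranes are short of sterol, the transcription factor SREBP2 (encoded by Srebf2) is carried to the Golgi by SCAP, is cut there and switches on the enzymes of the pathway and genes of cholesterol uptake, while INSIG1 holds the SCAP complex back when sterol is plentiful. Steroid-producing cells of the ovary and of the adrenal also take cholesterol esters from lipoproteins through SR-BI, the product of Scarb1, and rats use this route heavily.

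Promoter stretches are shown because coordinate control of these genes is known to run through SREBP2 together with nuclear factor Y, which binds the CCAAT box. RefSeq promoters of the GRCr8 assembly, each covering 250 bases before to 50 after the gene's start, were at hand for 6 of the 8 genes, all but Scarb1 and Sqle. CCAAT, read on either strand, was found in 5 of these 6 promoters, against 37.5% of all 33469 promoters. Each stretch below runs from 20 bases before the first box to 20 after the last box upstream of the start, 5′ to 3′ on the gene's strand, with the boxes in capitals (CCAAT, or ATTGG where it lies on the opposite strand).
Hmgcs1, chr2:53382096-53382195, plus strand, beginning 208 bases before the start: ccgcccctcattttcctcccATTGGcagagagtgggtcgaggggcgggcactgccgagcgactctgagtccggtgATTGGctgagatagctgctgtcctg
Idi1, chr17:66547535-66547610, minus strand, beginning 86 bases before the start: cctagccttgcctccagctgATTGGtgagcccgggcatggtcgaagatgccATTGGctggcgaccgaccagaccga
Fdps, chr2:176804877-176804966, minus strand, beginning 150 bases before the start: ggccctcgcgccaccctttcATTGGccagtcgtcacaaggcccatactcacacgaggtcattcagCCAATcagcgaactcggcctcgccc
Insig1, chr4:8057938-8057982, minus strand, beginning 213 bases before the start: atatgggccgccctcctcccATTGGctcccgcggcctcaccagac
Srebf2, chr7:115543158-115543202, plus strand, beginning 149 bases before the start: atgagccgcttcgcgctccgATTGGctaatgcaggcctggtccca

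The stretches of Hmgcs1, Idi1 and Fdps each held 2 boxes, and those of Insig1 and Srebf2 held 1. The Cyp51 promoter held no CCAAT. The GC box GGGCGG, to which Sp1 binds, was found on either strand in 5 of the 6 promoters (Hmgcs1, Fdps, Cyp51, Insig1 and Srebf2), against 33.1% of all promoters. Cores of the sterol regulatory element, spelled TCACNCCAC or TCACCCNAC on either strand, were in 0 of the 6 windows and in 1.12% and 0.932% of all promoters. A sequence with C at both open positions matches both spellings. Other spellings of the element were not searched for, so these counts say nothing of them. A match is a description of letters in this window and not a measured binding site.

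All values below are log2 signals relative to the 75th percentile of the same array, averaged over the spots of a probe, so a value of 0 equals that percentile. Probes differ in how well they hybridise, so values are compared between arrays and never between genes. Every member was above background on each of the 6 arrays, and no spot was saturated. The comparison of LPS-treated with saline-treated ovaries asked whether the supply of cholesterol transcripts had changed 2 days after the second injection.

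None of the 8 genes passed the study's criterion, a 2-fold or larger difference with an unadjusted p under 0.05. Of all probes, 1.69% met it in either direction, 0.613% higher and 1.08% lower in LPS-treated ovaries. Of the 18093 probes above background on every array, 0.984% met it. No member had an adjusted p under 0.05 in limma (adjusted p between 0.499 and 0.995), and 0 of all 30367 probes had one, while 5018 probes, or 16.5%, had an unadjusted p under 0.05. The 2 groups of arrays overlapped for all 8 genes. Groups did not overlap for 23.4% of all probes and for 11.4% of those above background on every array. The median difference over the 8 genes was 0.08 on the log2 scale and 5 of the 8 were positive. The median over all probes was -0.04.

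**Figure D1:**
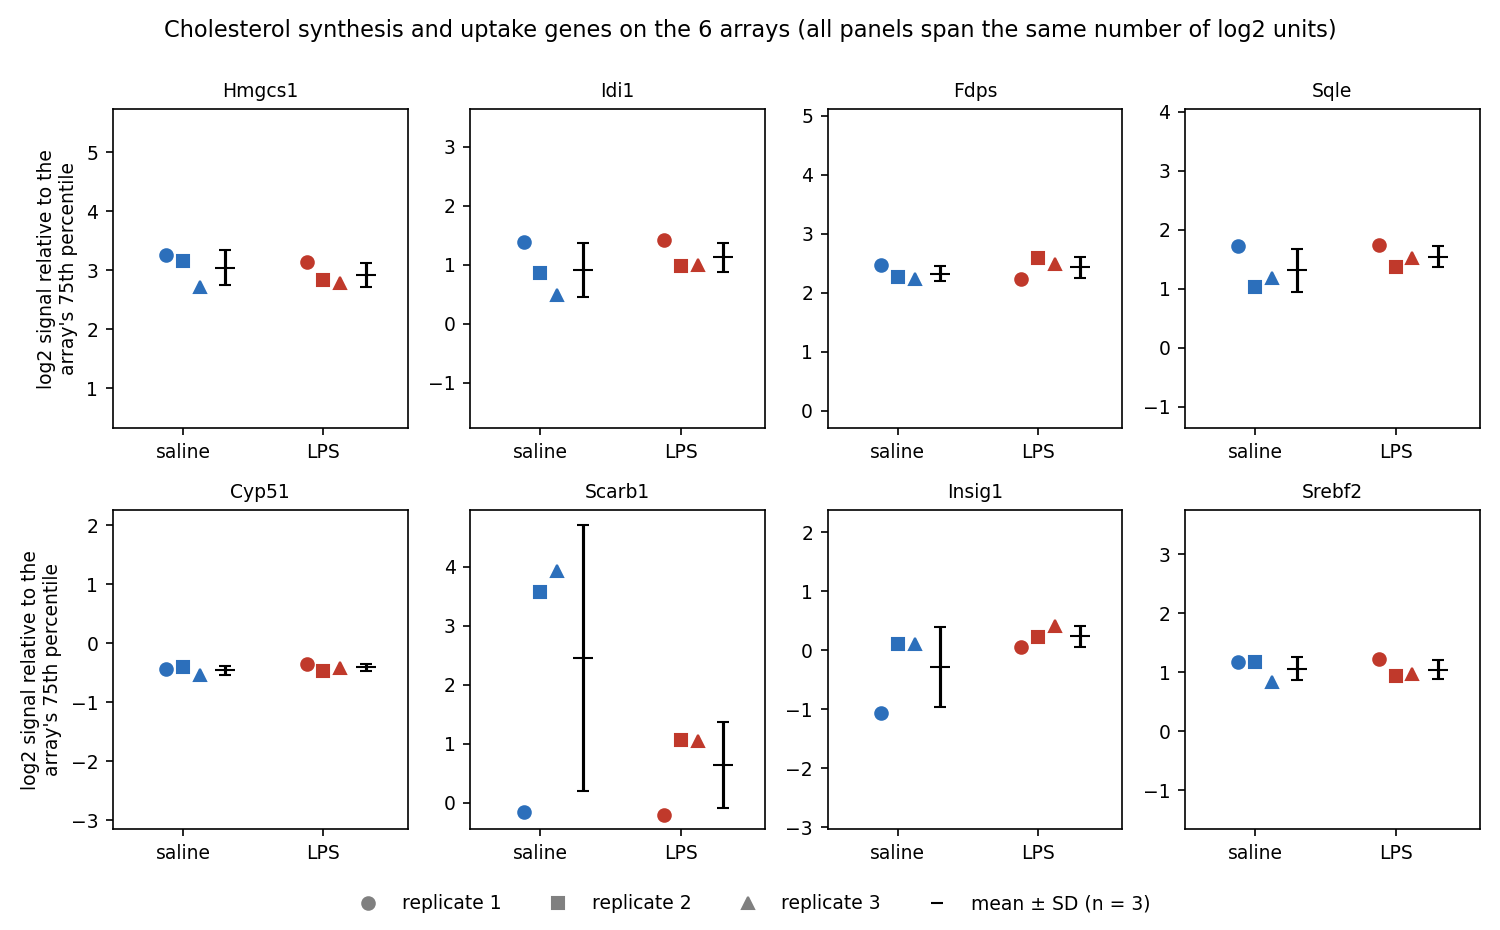
Log2 signal relative to the array's 75th percentile for the brightest probe of each of the 8 genes in saline-treated (blue) and LPS-treated (red) ovaries. Points are single arrays with 1 symbol for each replicate number, black bars are the mean ± SD of 3 arrays, and all panels span the same number of log2 units. Scarb1 spans 4.13 log2 units over the 6 arrays, whereas Cyp51 spans 0.19.

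Hmgcs1 encodes the cytosolic HMG-CoA synthase, an early enzyme of the mevalonate pathway. Its log2 signal was 3.15, 2.84 and 2.78 in LPS-treated replicates 1, 2 and 3, and 3.27, 3.16 and 2.72 in saline-treated replicates 1, 2 and 3. The highest and the lowest array were both saline-treated, so the LPS-treated values lay within the range of the controls. The means were 2.92 ± 0.20 and 3.05 ± 0.29 (SD, n = 3 each), a log2 difference of -0.13. Its 95% interval ran from -0.64 to 0.39, which leaves out a 2-fold change in either direction under this fit.

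Idi1 encodes isopentenyl-diphosphate isomerase, which interconverts the 5-carbon building blocks of isoprenoids. For Idi1 the log2 signal was 1.41, 0.98 and 1.00 in LPS-treated replicates 1, 2 and 3, and 1.39, 0.86 and 0.49 in the saline-treated ones. Replicate 1 was highest in both groups, and saline-treated replicate 3 was lowest. The log2 difference was 0.22 with a 95% interval from -0.44 to 0.87.

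Fdps encodes farnesyl diphosphate synthase, whose product is the branch point between sterols and other isoprenoids. On the brighter of its probes, the log2 signal was 2.23, 2.58 and 2.49 in LPS-treated replicates 1, 2 and 3, and 2.47, 2.28 and 2.24 in the saline-treated ones. LPS-treated replicate 1 lay below all 3 saline-treated arrays and LPS-treated replicates 2 and 3 lay above them. The log2 difference was 0.11 (95% interval -0.31 to 0.53) on this probe and 0.05 on the other probe of the gene (-0.34 to 0.44).

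Sqle encodes squalene epoxidase, the first oxygen-requiring step of the sterol branch. Signals of Sqle on the log2 scale were 1.73, 1.37 and 1.53 in LPS-treated replicates 1, 2 and 3, and 1.72, 1.03 and 1.18 in the saline-treated ones. As for Idi1, replicate 1 was highest in both groups, and saline-treated replicates 2 and 3 were the lowest arrays. The log2 difference of 0.24 had a 95% interval from -0.32 to 0.80.

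Cyp51 encodes lanosterol 14-alpha-demethylase, which carries out the first demethylation after lanosterol. It was the only member printed in 10 spots on each array. Averaged over them, its log2 signal was -0.35, -0.46 and -0.41 in LPS-treated replicates 1, 2 and 3, and -0.44, -0.40 and -0.54 in the saline-treated ones. These 6 values lay within 0.19 log2 units, and 98.7% of the probes above background on every array spanned at least as much. The log2 difference was 0.05 with a 95% interval from -0.31 to 0.42.

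Scarb1 varied most between arrays among the 8 genes. On its brighter probe the log2 signal was -0.20, 1.07 and 1.05 in LPS-treated replicates 1, 2 and 3, and -0.15, 3.58 and 3.94 in saline-treated replicates 1, 2 and 3. Saline-treated replicates 2 and 3 stood far above the other 4 arrays, while replicate 1 was low in both groups. The array with most signal had 17.5 times that of the array with least, and 0.249% of the probes above background on every array spanned a range this wide or wider. The other probe also had saline-treated replicates 2 and 3 highest and replicate 1 of each group lowest, with -1.03, -0.61 and -0.76 in the LPS-treated replicates and -1.04, 2.52 and 2.37 in the saline-treated ones.

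The Scarb1 means were 0.64 ± 0.73 in LPS-treated and 2.46 ± 2.26 in saline-treated ovaries (SD, n = 3 each). The log2 difference was -1.82 on the brighter probe (SE 1.07, 95% interval -4.38 to 0.75, limma unadjusted p = 0.136 and adjusted p = 0.499). On the other probe it was -2.08 (SE 0.92, unadjusted p = 0.0596, adjusted p = 0.321). The exact permutation test over the 6 arrays, two-sided, gave p = 0.3 for the brighter probe, where 0.1 is the smallest value that 3 arrays against 3 can give. With the replicate number as a block the same difference of -1.82 had SE 0.61 and an unadjusted p of 0.0341 (adjusted p = 0.213 in limma), and on the other probe the unadjusted p was 0.0364. The saline-treated arrays decided the value. Without saline-treated replicate 1 the difference was -3.12 (limma unadjusted p = 0.000488, adjusted p = 0.0506), or -3.24 with an adjusted p of 0.00278 on the other probe. This fit leaves as controls only the 2 arrays on which Scarb1 was high. In it 290 of all probes had an adjusted p under 0.05 in limma. Without saline-treated replicates 2 and 3 the difference turned to 0.78. That last fit sets 3 LPS-treated arrays against 1 saline-treated array, which is assumed to vary like the others.

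Several transcripts of steroid-producing cells were high on the arrays on which Scarb1 was high. For a list of 6 such genes that ovary and adrenal share (Star, Cyp11a1, Hsd3b1, Nr5a1, Fdx1 and Fdxr), the summed signal, as a multiple of the array's 75th percentile, was 11.8, 24.8 and 21.0 in LPS-treated replicates 1, 2 and 3. It was 14.3, 245 and 281 in saline-treated replicates 1, 2 and 3. Cyp11a1, the side-chain cleavage enzyme that turns cholesterol into pregnenolone, had log2 signals from -2.94 to -1.01 on the LPS-treated arrays and of -2.63, 6.17 and 6.58 on the saline-treated ones. All 6 genes of this list had their 2 highest arrays in saline-treated replicates 2 and 3, as did 13.3% of the probes above background on every array. Cyp17a1 and Insl3, genes of theca and interstitial cells, did not have this order. Lhcgr, a further gene of these cells, had it, but was never well above background. Cyp17a1, the enzyme with which theca cells start androgen synthesis, had log2 signals of 0.05, 1.87 and 1.42 in LPS-treated replicates 1, 2 and 3 and of -0.43, 0.25 and 0.73 in the saline-treated ones. The summed signal of the 3 listed theca and interstitial genes (Cyp17a1, Lhcgr and Insl3) was 2.95, 5.07 and 3.76 in LPS-treated and 2.52, 2.38 and 3.10 in saline-treated ovaries.

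Markers of the adrenal, an organ that was not the labelled tissue, followed the same arrays. The summed signal of 8 genes of the adrenal cortex was 1.91 to 2.95 in the LPS-treated ovaries and 3.43, 189 and 243 in saline-treated replicates 1, 2 and 3. All 8 were well above background in saline-treated replicates 2 and 3, and 4 or 5 of the 8 on each of the other arrays. Cyp11b1, the adrenal 11-beta-hydroxylase, had log2 signals of 5.62 and 6.05 in those saline-treated replicates and of -6.26 or lower on the other 4 arrays, where it was not well above background. For the 6 measured genes of the adrenal medulla the sums were 3.08 to 5.37 in LPS-treated ovaries and 5.87, 83.5 and 54.5 in the saline-treated ones. Ovarian markers were present throughout, with all 8 measured oocyte genes well above background on every array. Summed granulosa signals were 19.3, 67.6 and 46.6 in LPS-treated replicates 1, 2 and 3 and 35.6, 33.7 and 56.5 in the saline-treated ones. Oocyte sums were 16.8, 47.0 and 38.3 in the LPS-treated replicates and 22.8, 20.0 and 33.7 in the saline-treated ones. LPS-treated replicate 1 was the lowest array for both. The part of adrenal transcripts in the Scarb1 difference was not tested. In LPS-treated replicates 1, 2 and 3 the adrenal cortex sums were 2.95, 2.00 and 1.91, and Scarb1 read -0.20, 1.07 and 1.05. In saline-treated replicate 1, with a sum of 3.43, Scarb1 read -0.15. Over these 4 arrays Scarb1 read from -0.20 to 1.07, against 3.58 and 3.94 in saline-treated replicates 2 and 3. In RNA of whole tissue, fewer cells of a type and less RNA per cell cannot be told apart.

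**Figure D2:**
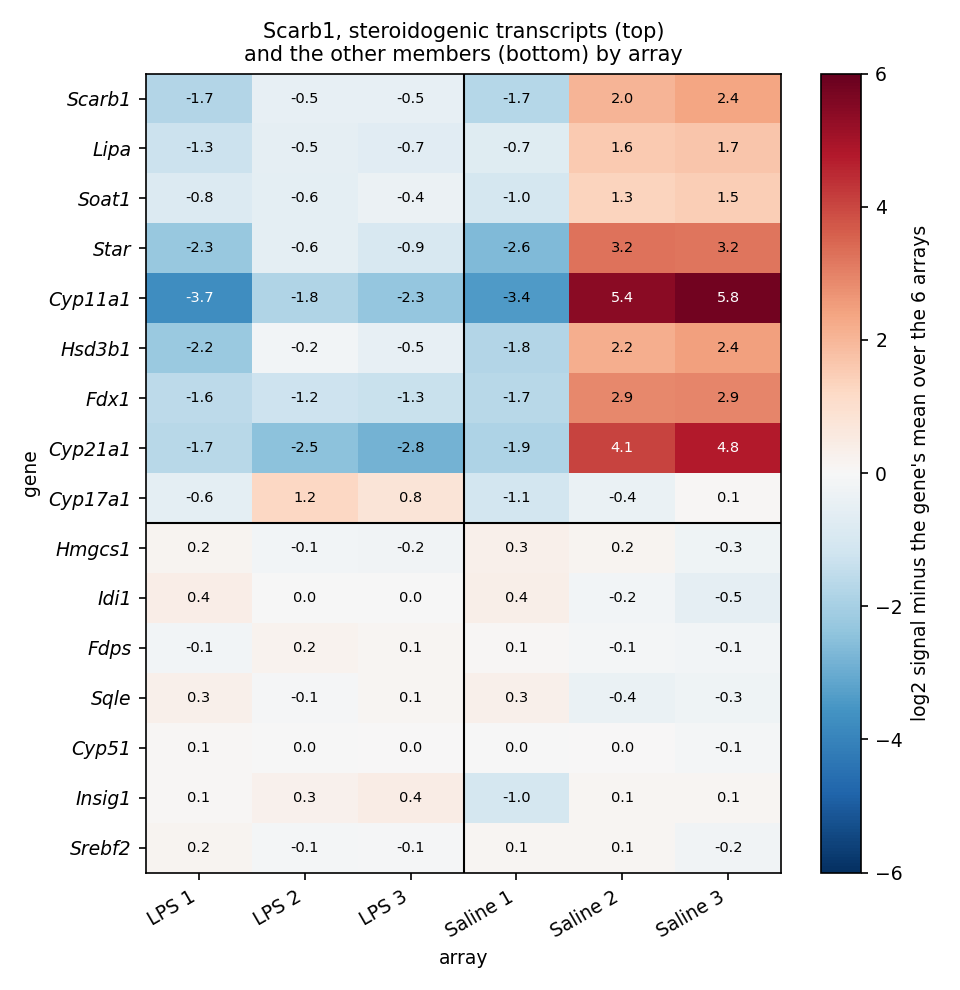
Log2 signal minus each gene's mean over the 6 arrays, with arrays in columns and genes in rows. The upper block holds Scarb1, Lipa, Soat1 and steroidogenic genes, the lower block the other 7 members, and red is above and blue below the gene's mean. All rows of the upper block but Cyp17a1 are highest in saline-treated replicates 2 and 3, and Cyp17a1 is highest in LPS-treated replicates 2 and 3, whereas the lower block stays near 0 apart from Insig1 in saline-treated replicate 1.

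Insig1 encodes the endoplasmic reticulum protein that retains SCAP when sterols are plentiful. Its log2 signal was 0.06, 0.23 and 0.41 in LPS-treated replicates 1, 2 and 3, and -1.07, 0.11 and 0.11 in the saline-treated ones. Saline-treated replicate 1 was low, and the other 5 arrays lay close together. That low value came from 1 spot. The 2 spots of the probe on that array read -2.03 and -0.11, a gap of 1.92, whereas they differed by at most 0.22 on each of the other 5 arrays. The log2 difference was 0.52 (SE 0.35, 95% interval -0.31 to 1.35). With spots more than 1 log2 unit under the brightest spot of their probe left out, an alternative added after the data were seen, the difference was 0.20 (unadjusted p = 0.293 in limma). Against saline-treated replicate 1 alone it was 1.30 (limma unadjusted p = 0.00672, adjusted p = 0.777), which rests on the array with the low spot.

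Srebf2 encodes SREBP2 itself and is one of its own targets. For Srebf2 the log2 signal was 1.22, 0.94 and 0.98 in LPS-treated replicates 1, 2 and 3, and 1.18, 1.16 and 0.83 in the saline-treated ones. The LPS-treated values fell among the saline-treated ones apart from replicate 1, which was higher by less than the spread within either group. The log2 difference was -0.01 with a 95% interval from -0.46 to 0.43.

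The members' spread over the 6 arrays can be set beside that of all probes. The median range over arrays was 0.67 log2 units for the probes above background on every array. Scarb1 (4.13), Insig1 (1.48), Idi1 (0.93) and Sqle (0.70) exceeded it, and Hmgcs1 (0.55), Srebf2 (0.39), Fdps (0.35) and Cyp51 (0.19) fell short of it. Idi1, Sqle and Srebf2 had their highest values on replicate 1 of each group, as did 28.4% of those probes. Fdps and Insig1 had theirs in LPS-treated replicates 2 and 3, as did 15.8% of those probes.

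Genes with a like pattern were ranked by the root mean square difference from the mean profile of the 8 members, after centring each gene on its own mean over the 6 arrays. Of 10004 candidates, the closest were Sfmbt1, Rnf13, Apool and Chchd4, with differences of 0.02 to 0.03 log2 units. That mean profile is shaped by Scarb1. Ranked against Scarb1 alone, a choice made after its values were seen, the closest were Plbd1, Flvcr2, Nr0b2, Hsd3b1 and Nr5a1, at 0.09 to 0.29 log2 units. Against the other 7 members, likewise chosen afterwards, they were Rpl15, Ufm1, Rbmxl1, Gnl3 and Cnot4, at 0.02 to 0.04 log2 units.

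The rest of the synthesis pathway was read from a list of 18 further enzymes, of which 17 had a probe and 16 were above background on every array. None of the 17 met the 2-fold criterion, 0 had an unadjusted p under 0.05 in limma, and the groups overlapped for all of them. Their median difference was 0.11 on the log2 scale, and 11 were positive. The lowest was Dhcr7, a reductase of the final steps, at -0.44 (95% interval -1.51 to 0.63). Enzymes that the naming rule picked were Tm7sf2, Acat2 and Nsdhl, at differences of 0.43, 0.25 and 0.20 (adjusted p = 0.599, 0.649 and 0.709 in limma). With the replicate number as a block Tm7sf2 had an unadjusted p of 0.0455 (adjusted p = 0.233).

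**Figure D3:**
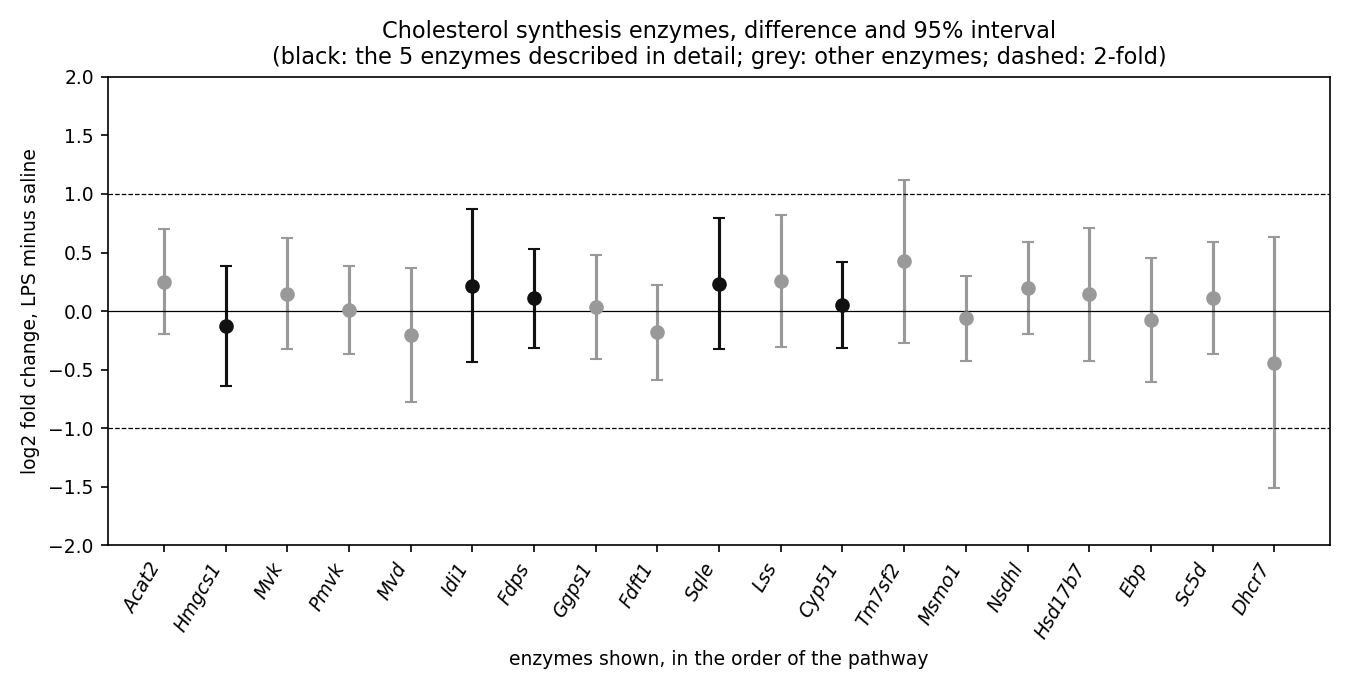
Log2 fold change, LPS-treated minus saline-treated, with its 95% interval from limma for 19 enzymes in the order of the pathway. Black points are the 5 member enzymes, grey points other enzymes, and dashed lines mark 2-fold. Every interval includes 0, and all but those of Tm7sf2 and Dhcr7 lie inside the 2-fold lines.

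The proteins that move, cut or restrain SREBP were read from a second list. Of its 14 genes 12 had a probe, 0 met the 2-fold criterion and 0 had an unadjusted p under 0.05, with a median of -0.04. Mbtps2, a protease that cuts SREBP, had the lowest unadjusted p (0.0658 in limma) and groups that did not overlap, but it was never well above background. Scap escorts SREBP to the Golgi. For Scap the log2 signal was 1.49, 1.78 and 1.62 in LPS-treated replicates 1, 2 and 3, and 1.68, 2.32 and 2.58 in the saline-treated ones, a difference of -0.57 (limma unadjusted p = 0.0697, or 0.0417 with the replicate number as a block). Saline-treated replicates 2 and 3 were again the highest, and without them the difference was -0.05. Nr1h2, which encodes the oxysterol receptor LXR-beta, differed by -0.26, and Ubxn4, a protein of the degradation machinery of the endoplasmic reticulum, by -0.24 (unadjusted p = 0.204 and 0.211 in limma).

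Among 22 genes for cholesterol uptake, transport, storage and efflux other than Scarb1, 21 had a probe and 1 met the 2-fold criterion, Lipa, lower in LPS-treated ovaries. Of all probes, 1.08% met it in that direction. Lipa encodes the lysosomal acid lipase that frees cholesterol from lipoprotein esters. Its log2 signal was 0.00, 0.78 and 0.60 in LPS-treated replicates 1, 2 and 3, and 0.55, 2.89 and 2.99 in the saline-treated ones, a difference of -1.68 (limma unadjusted p = 0.0398, adjusted p = 0.286). The groups overlapped through saline-treated replicate 1, and without saline-treated replicates 2 and 3 the difference was -0.09. Without saline-treated replicate 1 it was -2.48 (adjusted p = 0.0232 in limma), with only the 2 saline-treated arrays on which Lipa was high as controls. Without any other single array the unadjusted p in limma ran from 0.0581 to 0.129. Of the 20 genes of this list that were above background on every array, 10 had their 2 highest arrays in saline-treated replicates 2 and 3, against 13.3% of all such probes. They included Soat1, which esterifies cholesterol for storage, with -3.03, -2.79 and -2.59 in the LPS-treated replicates and -3.26, -0.90 and -0.75 in the saline-treated ones. These are the arrays with high adrenal markers given above, whose part in the values of Soat1 was not tested.

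Vldlr and Stard5 lay higher in LPS-treated ovaries with groups that did not overlap. Of the 21 genes of this list with a probe, 2 had such groups with LPS higher and 1 with LPS lower. Groups did not overlap for 11.4% of the probes above background on every array and for 23.4% of all probes. Vldlr encodes the receptor for very-low-density lipoprotein. The Vldlr log2 signal was -2.60, -2.54 and -1.97 in LPS-treated replicates 1, 2 and 3, and -3.06, -3.21 and -3.10 in the saline-treated ones, a difference of 0.75 (SE 0.22, unadjusted p = 0.0113, adjusted p = 0.271 in limma). Stard5, a cytosolic lipid-transfer protein, was at -2.69, -1.84 and -2.24 in LPS-treated replicates 1, 2 and 3, and at -3.01, -3.04 and -2.74 in the saline-treated ones, a difference of 0.67 (SE 0.25, unadjusted p = 0.0336, adjusted p = 0.281 in limma). Neither reached 2-fold. Without background correction the differences were 0.22 for Vldlr and 0.17 for Stard5, both dim probes.

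Scp2, which encodes sterol carrier protein, lay lower in LPS-treated ovaries. Its log2 signal was 3.46, 3.38 and 3.35 in LPS-treated replicates 1, 2 and 3, and 3.60, 4.30 and 4.16 in the saline-treated ones. The groups did not overlap, and the difference was -0.62 (limma unadjusted p = 0.0289, adjusted p = 0.276), or -0.20 without saline-treated replicates 2 and 3. Apoa1 differed by -1.20 (limma unadjusted p = 0.0804, or 0.0214 with the replicate number as a block, which meets the 2-fold criterion), with its highest value, -1.43, in saline-treated replicate 2. The liver genes Alb and Ttr were also highest there, at log2 signals of 2.06 and 1.86, against -1.33 and -1.45 in saline-treated replicate 3 and -6.47 or lower on the other arrays. The part of liver transcripts in that value was not tested.

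The neighbouring pathway of fatty acid synthesis is driven by SREBP1, whose gene had no matched probe. Of its 9 listed target genes, 8 were above background on every array and 1 met the 2-fold criterion, Scd, lower in LPS-treated ovaries. Among all probes, 1.08% met it in that direction. Groups did not overlap for 2 of the 9, both with LPS lower. In either direction they did not for 23.4% of all probes and for 11.4% of those above background on every array. Of the latter 18093 probes, 1040 had such groups with LPS lower. Scd encodes stearoyl-CoA desaturase, which makes monounsaturated fatty acids, the preferred partners for cholesterol esters. The Scd log2 signal was 0.53, -0.14 and 0.08 in LPS-treated replicates 1, 2 and 3, and 2.71, 2.21 and 0.99 in saline-treated replicates 1, 2 and 3. Every LPS-treated array lay below every saline-treated array, and saline-treated replicate 1, which was low for Scarb1 and Lipa, was the highest here. The difference was -1.81 (SE 0.45, 95% interval -2.88 to -0.74, limma unadjusted p = 0.00548, adjusted p = 0.271), and without saline-treated replicates 2 and 3 it was -2.55. The median over the 9 genes was -0.48, with 1 positive, or -0.43 over the 8 measured on both sides. Me1 (-1.17), Fads2 (-1.24) and Acly (-0.33), which also lay lower, had unadjusted p-values of 0.0829, 0.142 and 0.0819 in limma, and all 3 were highest in saline-treated replicates 2 and 3. With the replicate number as a block Me1 and Fads2 met the 2-fold criterion (unadjusted p = 0.0129 and 0.0322 in limma). Without those arrays Me1 and Fads2 differed by 0.15 and 0.53. Acaca was never well above background.

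**Figure D4:**
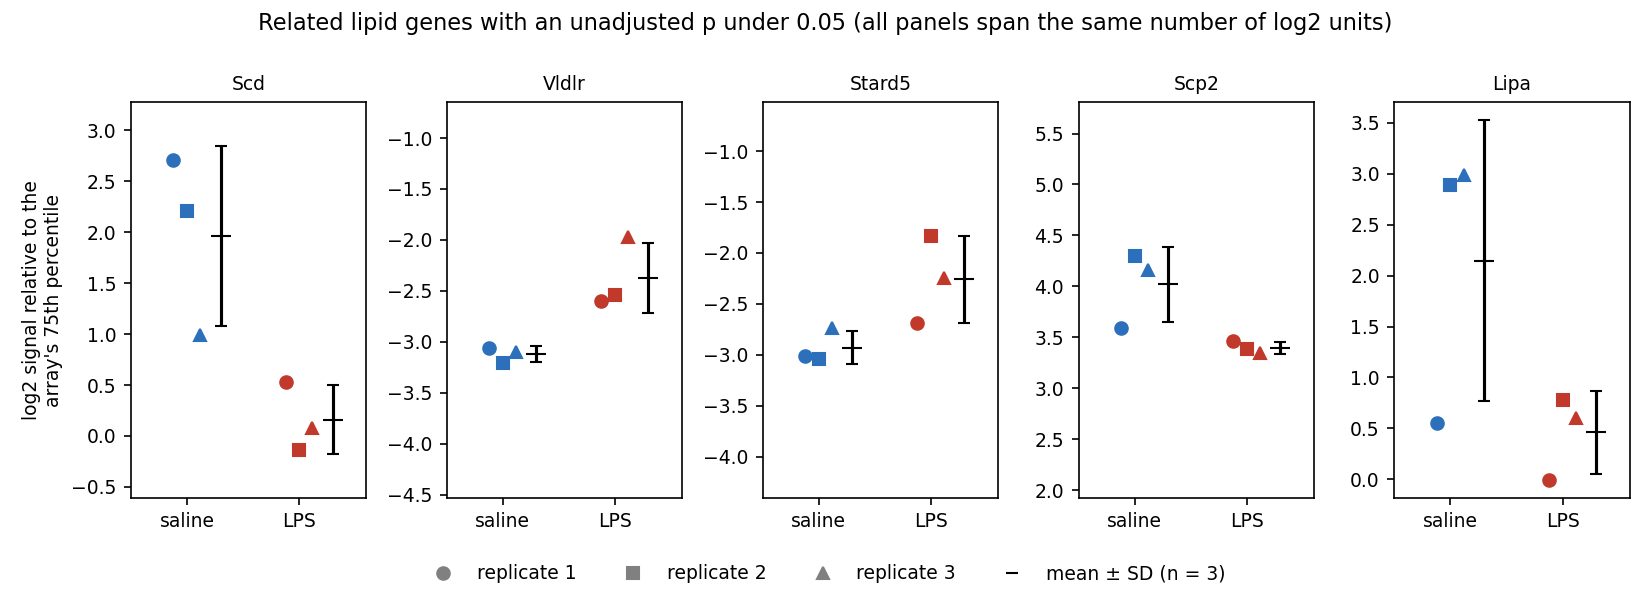
Log2 signal relative to the array's 75th percentile for 5 related lipid genes with an unadjusted p under 0.05 in limma, in saline-treated (blue) and LPS-treated (red) ovaries. Points are single arrays, black bars the mean ± SD of 3 arrays, and all panels span the same number of log2 units. The groups do not overlap for Scd, Vldlr, Stard5 and Scp2, and they overlap for Lipa through saline-treated replicate 1.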

How the data were processed

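Ovarian RNA was measured on 6 Agilent-028279 single-colour arrays of 1 slide. The authors deposited each array's spot intensity values, background-subtracted by Agilent Feature Extraction 10.5.1.1, and a value table whose intensity values equal the same processed signals within 0.497%. The labels list the R package lumi, with no role or version. Flagged spots were removed, spots of a probe were averaged as log2 values, and each array's 75th percentile was subtracted. A probe was well above background on an array if at least 50% of its unflagged spots were so marked. limma 3.58.1 in R 4.3.3 compared the groups over 30367 probes, each with at least 2 unflagged arrays per group, with Benjamini-Hochberg adjustment. Probes were named through RefSeq accessions with the GRCr8 gene table, which named 17998 probes and was used for no gene coordinates. The brightest probe stood for a gene.

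The members and the gene lists were chosen with earlier results of these data known. Dhcr7, Soat1 and the marker genes were chosen after their values were seen. So were Ggps1, Lss, Ebp, Msmo1, Acss2, Fads1 and Elovl6, named for the arrays on which they were highest. Beside these and the members, the text names the 5 genes of each list with the lowest unadjusted p and the 5 genes nearest in profile. Some genes that this rule picked are not reported here. Same-numbered arrays of the groups deviated together (r of 0.30, 0.22 and 0.25 over probes), so the fit with the replicate number as a block is given where it changed a call. Differently numbered arrays had r from -0.27 to 0.16. The labels name no pairing of arrays, so the block rests on the replicate numbers and on these correlations from the same data. Simulated data, with independent normal noise for each probe and array, tested the fit. Of 200 probes changed by 2 to 3 log2 units, among 30364, 97% met the 2-fold criterion. The simulation held no smaller changes, so it does not measure how often those would be found. The number of arrays limits the precision. On 70.4%, 66.3% and 69.9% of spots in saline-treated replicates 1, 2 and 3 and on 76.0%, 72.4% and 74.1% in the LPS-treated ones the signal was well above background. Saline-treated replicates 2 and 3 stood apart in adrenal markers.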

Additional observations from a re-analysis of the deposited data

How the results depend on the processing

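On their brightest probes, 0 of the 8 members had an adjusted p under 0.05 in any of the 20 alternatives run. The limits are the 3 arrays per group, 2 saline-treated arrays high in adrenal markers, and 1 Insig1 spot. Without normalization between arrays the median of all probes moved from -0.04 to 0.34, and Hmgcs1 and Srebf2 turned to 0.25 and 0.36, Nr1h2 to 0.12, Ubxn4 to 0.13 and Acly to 0.042. LPS-treated replicates 2 and 3 lay in slide row 1, and LPS-treated replicate 1 and all saline-treated arrays in row 2. With the slide row as a block, the difference therefore rests on LPS-treated replicate 1 against the saline-treated arrays. In that fit Hmgcs1 was 0.10, Fdps -0.094 and Srebf2 0.16. Srebf2 was 0.029 after normexp, 0.034 without background correction and 0.031 after quantile normalization. Without saline-treated replicates 2 and 3, Idi1 was -0.26, Fdps -0.031, Sqle -0.18, Scarb1 0.78 (0.24 on its other probe), Tm7sf2 -0.091, Acat2 -0.013, Me1 0.15, Fads2 0.53 and Insig1 1.30. Scarb1 met the 2-fold criterion without background correction (-1.76, unadjusted p = 0.0485 in limma), with the replicate block (-1.82) and without saline-treated replicate 1. When single arrays were left out, Scarb1 ran from -3.12 to -1.08, Srebf2 from -0.13 to 0.045 and the other Fdps probe from -0.0066 to 0.11. The cause of these changes was not tested.

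The members at 2-fold numbered 1 higher without saline-treated replicates 2 and 3 (Insig1), 1 lower without background correction or with the replicate block (Scarb1), and 0 to 1 lower with single arrays left out. Members with groups that did not overlap numbered 1 higher without normalization, and 0 to 2 higher and 0 to 1 lower with single arrays left out. With 1 saline-treated array overlap could not be computed.

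Over all probes, 186 higher and 327 lower met the criterion. The higher ones numbered 2 after normexp, 0 without background correction, 1003 without normalization, 118 after quantile normalization, 17 among probes above background on every array, 100 by the methods' t-test (their analysis of variance, run per probe), 1489 with the slide row as a block, 494 without saline-treated replicates 2 and 3, and 129 to 374 with single arrays left out. The lower ones numbered 211 without background correction, 173 after quantile normalization, 179 among probes above background on every array, 48 by that test, 66 with the slide row, 506 without saline-treated replicates 2 and 3, and 81 to 757 with single arrays left out. Probes at an adjusted p under 0.05 numbered 5 with the slide row and 0 to 290 with single arrays left out, the highest without saline-treated replicate 1. In the uptake list, 2 genes were higher without normalization and 1 without saline-treated replicates 2 and 3. Lower ones there numbered 2 after normexp or with the replicate block. They numbered 0 without normalization, after quantile normalization or by the t-test per probe, and 0 to 5 with single arrays left out. Fatty acid genes that were lower numbered 3 without background correction or with the replicate block, 0 with the slide row, and 1 to 3 with single arrays left out. The replicate block changed no other 2-fold call among the members, and among the named list genes it added Apoa1, Me1 and Fads2.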

Other observations

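Of the 16 further enzymes above background on every array, 5 (Acat2, Ggps1, Lss, Tm7sf2 and Ebp) had their 2 highest values on replicate 1 of each group, as Idi1, Sqle and Srebf2 did. That is 31.2% of them, close to the 28.4% of all probes above background on every array. Summed signals of the oviduct markers were highest on the same arrays, at 22.4 in LPS-treated replicate 1 and 23.5 in saline-treated replicate 1, against 7.97 to 12.6 on the others. Their part in the enzyme values was not tested.

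Of the 8 fatty acid genes above background on every array, 5 (Acly, Acss2, Me1, Fads1 and Fads2) had their 2 highest values in saline-treated replicates 2 and 3. That is 62.5% of them, against 13.3% of all probes above background on every array. Scd and Elovl6 were highest in saline-treated replicate 1. Msmo1 and Dhcr7 were the 2 further synthesis enzymes with their highest values in saline-treated replicates 2 and 3. They are 12.5% of the 16 above background on every array, near the 13.3% of all such probes. Msmo1 spanned 0.17 log2 units over the arrays. Dhcr7 read 1.70 and 2.12 in those replicates, against 0.47 to 1.48 on the other arrays.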
